A study of Mus musculus with 4 samples.

Results

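A set of 9 genes of the mitochondrial route to apoptosis was followed in bulk RNA sequencing of whole mouse hearts, in animals that lack Klf9, a Krüppel-like zinc finger transcription factor, and in wild-type animals. They were taken by symbol from the deposited table of 17485 genes, which held all 9: the survival proteins Bcl2, Bcl2l1 (BCL-XL) and Mcl1, the pore-forming effectors Bax and Bak1, the BH3-only proteins Bcl2l11 (BIM) and Bid, the apoptosome scaffold Apaf1, and Diablo (SMAC). The groups were Klf9 knockout (Klf9 KO), with 2 libraries, and wild type (WT), with 2 libraries, from hearts of mice labelled as male and 8 weeks old in both groups. The study asked what Klf9 does for cardiac mitochondria. The labels give neither the strain, the allele nor the cells in which Klf9 was deleted. Nor do they say if libraries sharing a label are from different animals, and a p-value here therefore measures variation between libraries that may be technical.

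In this route, the survival members of the BCL2 family hold BAX and BAK1 in check at the outer mitochondrial membrane, and BH3-only proteins relieve that restraint or activate the effectors directly. Once the membrane is open, cytochrome c binds APAF1, which assembles the apoptosome and activates caspase 9, while DIABLO is released and binds inhibitors of apoptosis. In heart muscle, whose cells are rarely replaced, Bcl2l1 and Mcl1 are known as guards of mitochondrial integrity.

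The deposited table gave log2 ratios between libraries and not levels, and a value for each library was recovered from those ratios in a unit that was not given. Whether these values are scaled by transcript length is not known, so no level is compared between genes. Depth is unknown. The recovered values summed to 409359 and 418974 in the Klf9 KO libraries, against 426032 and 489534 in the WT libraries. Klf9 itself stood at 2.66 and 1.99 in Klf9 KO, against 74.9 and 58.8 in WT (log2 fold change -4.35 ± 0.20, SE, with 2 libraries per group; limma adjusted p = 3.46e-06). The Klf9 KO libraries did not match each other in Y-linked genes. Kdm5d stood at 4.01 in replicate 1 and 0.01, the smallest step of the values, in replicate 2, against 3.42 and 3.97 in WT. Ddx3y, Uty and Eif2s3y stood at 7.82, 3.57 and 26.96 in replicate 1 and at 0.01, 0.58 and 0.73 in replicate 2. In WT they stood at 14.6 and 17.1, 4.68 and 7.31, and 23.6 and 41.8. Replicate 2 thus goes against its label of male sex, though Xist was not in the deposited table, and results are given with and without this library. Esr1, the estrogen receptor alpha gene, stood at 0.09 and 0.03 in Klf9 KO, against 3326 and 2726 in WT, a wider gap than that of Klf9 itself, and the part of this difference in the results was not tested. Fetal and cycling genes moved with the groups too. The 4 fetal heart markers Tnni1, Myh7, Igf2 and Dlk1 summed to 1078 and 1646 in Klf9 KO, against 58.4 and 37.1 in WT, and 5 markers of cycling cells to 77.8 and 97.97, against 4.71 and 6.04; all of these 4 and 5 genes were higher in Klf9 KO by limma. The 6 cardiomyocyte markers were present in every library, summing to 20650 and 18610 in Klf9 KO, against 25120 and 30790 in WT, with 2 of 6 lower. Macrophage markers summed to 27.5 and 28.4, against 79.7 and 100.5, with 3 of 4 tested genes lower, and neutrophil markers to 0.97 and 1.5, against 14.6 and 16.3, with 2 of 2 tested genes lower. Smooth muscle and pericyte markers summed to 393.6 and 485.2, against 249.3 and 310.0, with 4 of 5 higher and 1 lower, endothelial markers to 444.6 and 452.1, against 355.7 and 343.4, with 2 of 5 higher, and fibroblast markers to 536.5 and 597.6, against 315.8 and 500.4, with 2 of 5 higher and 1 lower. Red cell markers summed to 7362 and 5113, against 4186 and 3776, with 0 of 3 past the threshold in limma, and 5 lymphocyte markers to 2.72 and 1.77, against 1.19 and 0.36, with Cd3e at the smallest step in 1 WT library. The part of these cell types and of stage in the results that follow was not tested, and in whole hearts fewer cells of a type and less RNA per cell cannot be told apart.

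The effectors, BIM and the apoptosome scaffold were higher in Klf9 KO hearts, while 2 of the 3 survival members and Diablo were lower. Bcl2l11 showed the largest increase of the 9 genes. Bak1, Apaf1 and Bax followed, with 95% intervals that overlapped one another, Diablo, Bcl2l1 and Mcl1 fell, and Bcl2 and Bid did not pass. The test was limma on log2(value + 1) over the 12135 genes that reached a value of 1 in 2 or more libraries, with Benjamini-Hochberg adjusted p below 0.05. By this test 4 of the 9 genes were higher, where 27.7% of all tested genes were, and 3 were lower, where 17.0% of all tested genes were. The median log2 fold change was 0.19 for the 9 genes and 0.12 for all tested genes. In 5 of the 9 both Klf9 KO libraries lay above both WT libraries (45.2% of tested genes), and in 3 both lay below (30.2% of tested genes), so that the non-overlap of single genes was common throughout the transcriptome. A fit that leaves out 1 library has 1 library in that group, which is assumed to vary as the libraries of the other group do. These fits kept the genes that reached the filter with all libraries. Without Klf9 KO replicate 2 the counts were 2 higher and 1 lower, against 15.3% and 9.06% of tested genes. When replicate 1 was left out instead, no member passed as lower: Bcl2l1, Mcl1 and Diablo had log2 fold changes of -0.72, -0.61 and -0.91. Those of Bcl2l11, Bax, Bak1 and Apaf1 were 1.38, 0.92, 1.12 and 0.79. Leaving out WT replicate 1 left 4 higher and 3 lower, against 35.7% and 26.9% of tested genes. Only Bcl2l11 and Apaf1 passed with all libraries and without each library in turn, 2 of 9 genes, where 22.2% of all tested genes did.

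**Figure D1:**
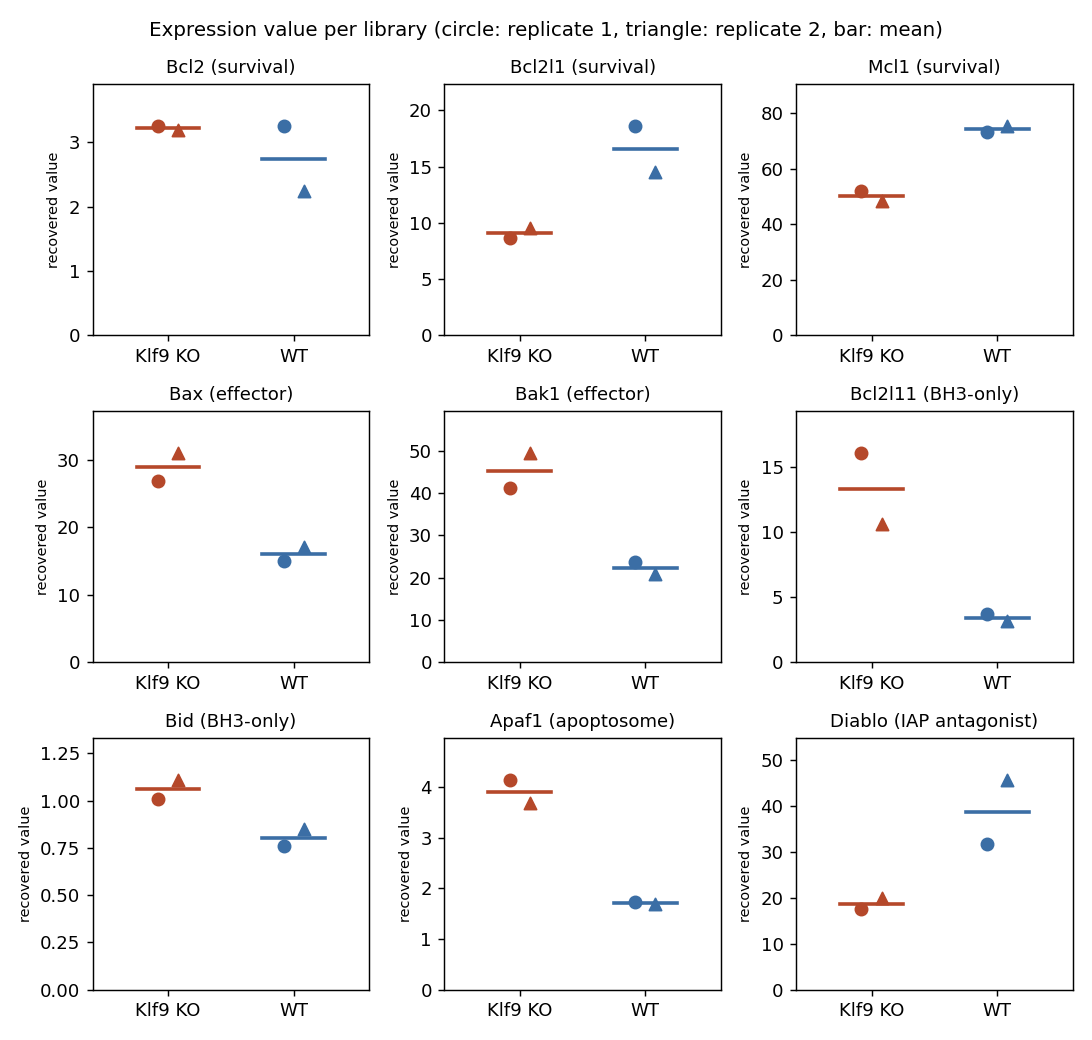
Recovered expression value (unit not given) of the 9 genes in each library, Klf9 KO left and WT right; circles are replicate 1, triangles replicate 2, bars the mean of 2 libraries, and each axis starts at 0. The groups overlap in Bcl2 alone, where WT replicate 1 (3.25) lies between the Klf9 KO libraries (3.26 and 3.19), and the Klf9 KO libraries differ most in proportion in Bcl2l11 (16.1 and 10.6, or 0.60 on the log2 scale).

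**Figure D2:**
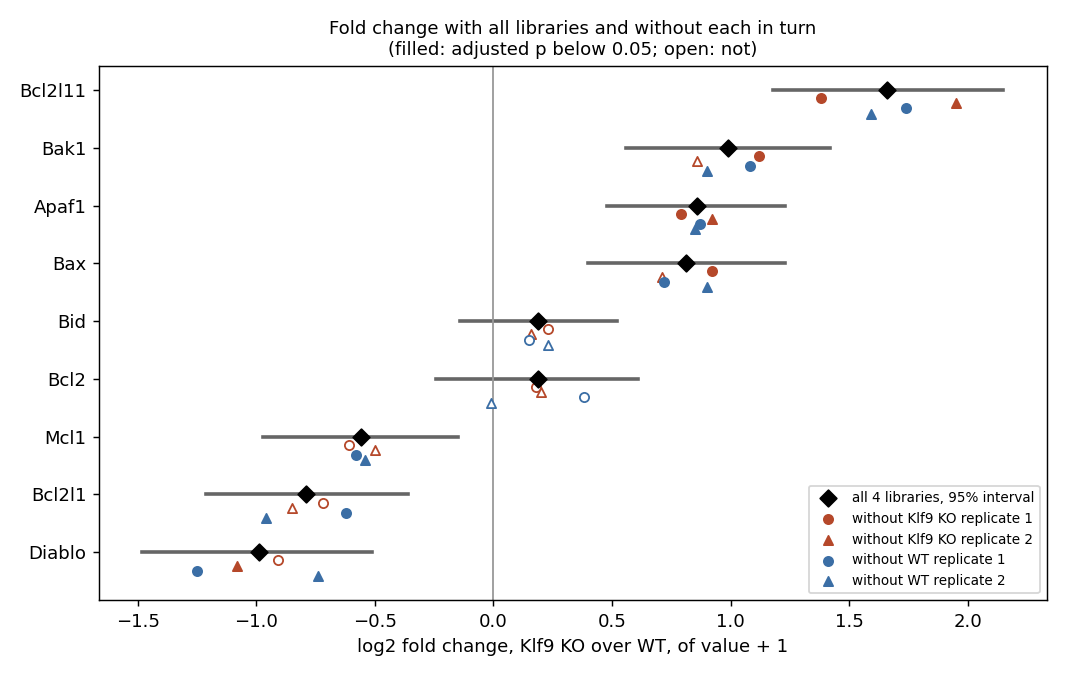
Log2 fold change of value + 1, Klf9 KO over WT, of the 9 genes with all 4 libraries (diamonds, with 95% intervals) and without each library in turn (smaller marks, filled where the limma adjusted p was below 0.05 and open where it was not). All 4 smaller marks are filled for Bcl2l11 and Apaf1, while Mcl1 and Bcl2l1 are open without either Klf9 KO library.

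Among the BH3-only members, Bcl2l11 encodes BIM, which binds every survival member of the family and can activate BAX and BAK1. It stood at 16.1 and 10.6 in Klf9 KO, against 3.69 and 3.21 in WT. Both Klf9 KO libraries were well above both WT libraries, and replicate 1 was the higher of the 2 by 0.60 on the log2 scale. The log2 fold change was 1.66 ± 0.21 (SE, 2 libraries per group; limma adjusted p = 0.000401), and the ratio of the group means was 3.87. It was 1.95 without Klf9 KO replicate 2 and 1.38 without Klf9 KO replicate 1, and both passed. On the deposited scale without a pseudocount, the 4 log2 ratios of a Klf9 KO over a WT library ran between 1.52 and 2.33 in the authors' deposited table.

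Bid, which encodes the BH3-only protein that caspase 8 cleaves to link death receptors to mitochondria, was near the lower end of the values. It stood at 1.01 and 1.11 in Klf9 KO, against 0.76 and 0.85 in WT. The groups did not overlap, but the log2 fold change of 0.19 ± 0.15 (SE, 2 libraries per group) did not pass (limma adjusted p = 0.314; 95% interval -0.14 to 0.52). Bid reached the minimum of 1 in the Klf9 KO libraries only, so that its entry into the test rested on the group where it was higher. The deposited Poisson p-values for its 4 library pairs in the authors' deposited table were 0.285, 0.157, 0.636 and 0.433, and the q-value of the group comparison was 0.23.

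Both effectors were higher in Klf9 KO. Bak1, whose product resides in the outer mitochondrial membrane, stood at 41.1 and 49.5 in Klf9 KO, against 23.7 and 20.9 in WT, a log2 fold change of 0.99 ± 0.19 (SE, 2 libraries per group; limma adjusted p = 0.00323). Bax, whose product shuttles between cytosol and mitochondria, stood at 26.8 and 31.0 in Klf9 KO, against 14.95 and 17.05 in WT, a log2 fold change of 0.81 ± 0.18 (limma adjusted p = 0.00704). In both genes the Klf9 KO libraries lay above the WT libraries with no overlap. Neither call held without Klf9 KO replicate 2, while the fold changes stayed close, at 0.86 for Bak1 and 0.71 for Bax. That fit has 1 Klf9 KO library, and fewer genes passed in it over the whole transcriptome, as given above. Both passed when replicate 1 was left out, at 1.12 and 0.92.

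The survival members did not move alike. Bcl2l1, which encodes BCL-XL, stood at 8.68 and 9.57 in Klf9 KO, against 18.6 and 14.5 in WT, with no overlap and a log2 fold change of -0.79 ± 0.19 (SE, 2 libraries per group; limma adjusted p = 0.00917). Mcl1, which encodes a short-lived survival protein that hearts need, stood at 52.1 and 48.3 in Klf9 KO, against 73.15 and 75.6 in WT, with a log2 fold change of -0.56 ± 0.18 (limma adjusted p = 0.0342). The libraries of each group were close to each other in Mcl1, and the gap between the groups was larger than either spread. Neither call held without a Klf9 KO library, while the fold changes stayed close to those with all libraries. They were -0.85 for Bcl2l1 and -0.50 for Mcl1 without replicate 2 (adjusted p = 0.0587 and 0.379), and -0.72 and -0.61 without replicate 1 (adjusted p = 0.109 and 0.245).

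Bcl2, the founding survival member, did not pass. It stood at 3.26 and 3.19 in Klf9 KO, against 3.25 and 2.24 in WT. WT replicate 1 matched both Klf9 KO libraries and WT replicate 2 lay below them, so the groups overlapped. The log2 fold change was 0.19 ± 0.19 (SE, 2 libraries per group; limma adjusted p = 0.447), with a 95% interval of -0.24 to 0.61, and -0.01 without WT replicate 2. The authors' deposited table showed the same split by WT library, with log2 ratios of 0.00 and -0.03 over WT replicate 1 (Poisson p-values 0.836 and 0.784) and of 0.54 and 0.51 over WT replicate 2 (2.22e-05 and 0.000124). Its DEGseq q-value for the groups in the authors' deposited table was 0.0195.

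Downstream of the membrane, Apaf1 and Diablo moved in opposite directions. Apaf1 stood at 4.14 and 3.68 in Klf9 KO, against 1.73 and 1.69 in WT. The libraries of each group were close together and the groups far apart, and the log2 fold change was 0.86 ± 0.17 (SE, 2 libraries per group; limma adjusted p = 0.00337). Because its values are low, the pseudocount compresses this change: the 4 deposited log2 ratios ran between 1.09 and 1.29 in the authors' deposited table, the narrowest range of the 7 genes that passed apart from Mcl1 (-0.65 to -0.49). It passed without Klf9 KO replicate 2 (adjusted p = 0.0116) and without Klf9 KO replicate 1 (adjusted p = 0.0311). Diablo, whose product displaces caspases from inhibitors of apoptosis, stood at 17.5 and 19.8 in Klf9 KO, against 31.8 and 45.6 in WT. Both Klf9 KO libraries were below both WT libraries, which differed from each other by 0.52 on the log2 scale. The log2 fold change was -0.99 ± 0.22 (limma adjusted p = 0.00577), -1.08 without Klf9 KO replicate 2 (adjusted p = 0.019) and -0.91 without replicate 1 (adjusted p = 0.0515).

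Ratios between 2 members within a library were compared across libraries, since any scaling by length cancels in such a comparison. Each of Bcl2l11, Bid, Bax and Bak1 was set against each of Bcl2, Bcl2l1 and Mcl1, which gave 12 ratios; they were formed with the single-gene results known and are given with no test. Over Bcl2l1 and Mcl1 every ratio had to be higher in Klf9 KO, since each numerator lay above WT and each denominator below, without overlap. Those ratios restate the single-gene results. With the ratios over Bcl2 included, 11 of the 12 were higher in all 4 combinations of a Klf9 KO and a WT library. The exception was Bid over Bcl2, 2 genes that did not pass singly, at 1.01 and 1.13 in Klf9 KO, against 0.763 and 1.24 in WT, where 1 is the WT mean. The largest change was in Bcl2l11 over Bcl2l1, at 8.85 and 5.28 in Klf9 KO, against 0.944 and 1.06 in WT. The ratio of Bax to Bcl2 changed least of the 11, at 1.34 and 1.59 in Klf9 KO, against 0.753 and 1.25 in WT. Bax over Bcl2l1 was 3.12 and 3.28, against 0.811 and 1.19.

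**Figure D3:**
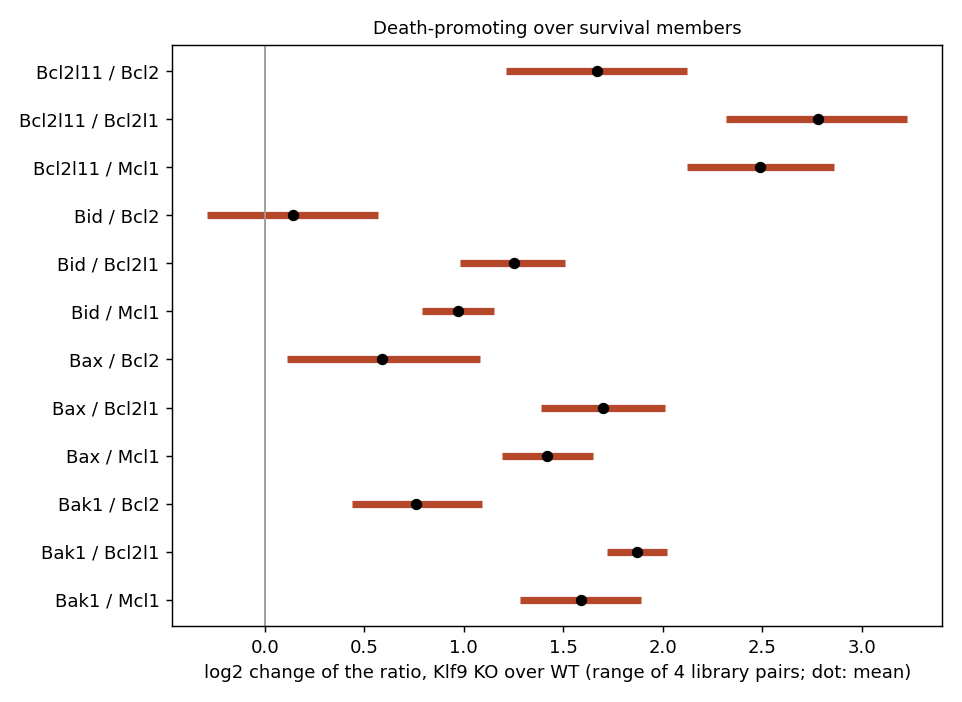
Log2 change, Klf9 KO over WT, of the ratio of a death-promoting to a survival member; bars span the 4 pairs of a Klf9 KO and a WT library and dots are their mean. Bid over Bcl2 spans 0 (-0.29 to 0.57), and the other 11 bars lie above 0, up to 2.32 to 3.23 for Bcl2l11 over Bcl2l1. Bars over Bcl2l1 and Mcl1 had to lie above 0, given the single-gene values.

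Promoter sequences were read because KLF9 is known to bind GC boxes and related CACCC elements. RefSeq (GRCm38.p6) gave 12 annotated start sites for all 9 genes, each with 250 bases before and 50 after the start. CACCC was present on either strand in 7 of these 12 windows and in 57.5% of 32851 windows of the same length over all genes. GGGCGG was present in 8 of the 12 and in 35.7% of all windows. Windows of the same gene were counted separately. Their GC content ran from 49.3% to 76.0% over the 12, and the shares were not matched for it. The sequence just after the start was found in a GENCODE M21 transcript for 10 of the 12 windows. It was not found for Bcl2 and Mcl1, whose windows both held GGGCGG. The 2 motifs can overlap. GTAAACA, a FOXO recognition sequence, was present in 1 of the 12, the upstream window of Bcl2l11, and in 3.65% of all windows. The windows of the 2 genes that passed in every leave-one-out fit, Bcl2l11 with both of its start sites and Apaf1, and that of Diablo, which had the largest decrease, are shown 5′ to 3′ on the gene's strand, with CACCC and GGGCGG of either strand in capitals. The window at chr2:128125788-128126087 (plus strand) belongs to the upstream start of Bcl2l11, that at chr2:128127325-128127624 (plus strand) to its downstream start, that at chr10:91082694-91082993 (minus strand) to Apaf1 and that at chr5:123524115-123524414 (minus strand) to Diablo.
Bcl2l11 upstream start: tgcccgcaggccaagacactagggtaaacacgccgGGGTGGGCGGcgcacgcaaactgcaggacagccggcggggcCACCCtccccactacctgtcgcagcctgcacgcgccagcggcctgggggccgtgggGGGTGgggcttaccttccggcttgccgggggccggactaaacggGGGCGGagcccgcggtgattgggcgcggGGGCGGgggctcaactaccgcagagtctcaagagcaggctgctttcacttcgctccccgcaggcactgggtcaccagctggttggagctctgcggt
Bcl2l11 downstream start: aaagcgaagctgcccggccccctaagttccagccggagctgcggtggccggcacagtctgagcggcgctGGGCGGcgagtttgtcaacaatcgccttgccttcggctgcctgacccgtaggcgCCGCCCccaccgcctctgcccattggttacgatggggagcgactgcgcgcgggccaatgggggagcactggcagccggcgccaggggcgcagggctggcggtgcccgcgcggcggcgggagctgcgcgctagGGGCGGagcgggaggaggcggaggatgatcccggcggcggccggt
Apaf1: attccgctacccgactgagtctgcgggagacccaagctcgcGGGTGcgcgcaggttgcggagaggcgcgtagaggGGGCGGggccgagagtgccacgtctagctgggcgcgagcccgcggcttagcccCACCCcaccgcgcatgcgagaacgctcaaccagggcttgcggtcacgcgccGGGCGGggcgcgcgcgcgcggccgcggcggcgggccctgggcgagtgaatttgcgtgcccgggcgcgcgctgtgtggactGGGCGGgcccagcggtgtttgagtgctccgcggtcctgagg
Diablo: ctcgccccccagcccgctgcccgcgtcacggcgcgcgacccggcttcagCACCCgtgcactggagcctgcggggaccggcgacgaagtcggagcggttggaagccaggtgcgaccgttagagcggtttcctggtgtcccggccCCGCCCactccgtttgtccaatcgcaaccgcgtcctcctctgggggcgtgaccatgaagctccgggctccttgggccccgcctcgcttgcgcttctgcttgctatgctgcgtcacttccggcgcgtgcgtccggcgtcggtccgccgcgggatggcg
The upstream Bcl2l11 window held 3 CACCC and 3 GGGCGG, 1 of each overlapping, and the downstream window 3 GGGCGG. The Apaf1 window held 2 CACCC and 3 GGGCGG, and the Diablo window 1 of each. A match of letters is a description of the sequence, and binding was not measured.

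Other genes of the same pathway were described from 11 lists, of which 69 symbols were in the table and 58 were tested. Of these 22 were higher (37.9%, against 27.7% of all tested genes) and 9 lower (15.5%, against 17.0%), with a median log2 fold change of 0.06. With Klf9 KO replicate 2 left out, 7 were higher (12.1%, against 15.3% of all tested genes) and 4 lower (6.90%, against 9.06%). With Klf9 KO replicate 1 left out, 12 were higher (20.7%, against 18.1% of all tested genes) and 4 lower (6.90%, against 10.3%). Of the 22 higher genes, 3 reached the filter in the Klf9 KO libraries only, with WT values below 1. The counts of single lists that follow are small and stand against the same 27.7% higher and 17.0% lower over all tested genes.

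Among 4 apoptosome partners and caspases, 2 rose and 1 fell (27.7% and 17.0% of all tested genes), with a median log2 fold change of 0.32. Casp2 stood at 6.11 and 6.69 in Klf9 KO, against 2.67 and 2.66 in WT (1.01 ± 0.17, SE; limma adjusted p = 0.00142), and Casp6 at 10.5 and 11.7 in Klf9 KO, against 6.21 and 8.37 in WT (0.56 ± 0.19; limma adjusted p = 0.0394). Cycs, the cytochrome c that carries electrons in the respiratory chain and binds APAF1 once released, stood at 202 and 193 in Klf9 KO, against 256 and 522 in WT, and its fall of -0.88 ± 0.32 was at the threshold (limma adjusted p = 0.0492). Casp9, the caspase that APAF1 recruits, did not pass (4.31 and 4.22, against 4.0 and 3.94; adjusted p = 0.709). Cycs and Casp9 were singled out after their values were seen. Casp2 passed with each library left out in turn. Casp6 did not pass without either Klf9 KO library (0.298 without replicate 2 and 0.142 without replicate 1), and Cycs did not without any 1 of Klf9 KO replicate 1 (0.122), Klf9 KO replicate 2 (0.173) and WT replicate 2 (0.0639). The call of Casp6 was also lost after RLE scaling and with no filter, and that of Cycs with no filter and with a pseudocount of 0.1 or none.

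Of 6 other tested BH3-only genes, 4 rose and 1 fell (27.7% and 17.0% of all tested genes), with a median of 0.65. Bbc3, which encodes the p53-induced protein PUMA, stood at 3.79 and 3.86 in Klf9 KO, against 1.16 and 1.43 in WT (1.07 ± 0.17, SE; limma adjusted p = 0.00105). Bmf stood at 3.74 and 2.39, against 0.94 and 1.13 (0.98 ± 0.20; limma adjusted p = 0.00401), and Bad, which growth factor signalling silences, rose by 0.59. Bnip3, whose product acts mainly as a mitophagy receptor, fell to 24.9 and 23.1 in Klf9 KO, against 156 and 196 in WT (-2.82 ± 0.20). Bbc3, Bmf and Bnip3 passed with each library left out in turn, while Bad did not pass without either Klf9 KO library (adjusted p = 0.233 without replicate 2 and 0.199 without replicate 1). Of the BCL2-like genes outside the core, Bok (0.67) and Bcl2l12 (0.63) rose of 4 tested, and neither passed without Klf9 KO replicate 2 (adjusted p = 0.391 and 0.426; log2 fold changes 0.40 and 0.39), after RLE scaling or with no filter. Bad did not pass after RLE scaling either. Of 6 further survival relatives in the table only Bcl2l2 could be tested, at 12.5 and 13.5 in Klf9 KO, against 15.4 and 16.9 in WT, and it did not pass; Bcl2a1a, Bcl2a1b, Bcl2a1c and Bcl2a1d, near-identical copies, and Bcl2l10 were below the filter.

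Among 8 inhibitors of apoptosis and their antagonists 3 rose (27.7% of all tested genes) and 5 did not pass. Birc5, which encodes survivin and also serves chromosome segregation in dividing cells, stood at 15.9 and 23.2 in Klf9 KO, against 1.61 and 0.59 in WT (3.31 ± 0.27, SE; limma adjusted p = 3.79e-05), beside the rise of the cycling cell markers given above. Birc6 and Sept4 each changed by 0.58 and passed. Xiap, the direct caspase inhibitor that DIABLO binds, was singled out after its values were seen: it stood at 12.5 and 11.2, against 11.7 and 12.0, with overlapping groups. Of 4 further factors released from mitochondria or cutting DNA, the nuclease gene Endog fell (16.6 and 18.4 in Klf9 KO, against 36.6 and 41.8 in WT; -1.12 ± 0.18), as did Aifm1 (-0.60), and Dffb, the caspase-activated nuclease, rose (0.63). Birc5 and Endog passed with each library left out in turn. Birc6, Sept4, Aifm1 and Dffb did not pass without Klf9 KO replicate 2, at log2 fold changes of 0.74, 0.59, -0.59 and 0.65 (adjusted p = 0.0839, 0.262, 0.267 and 0.131), or without Klf9 KO replicate 1, at 0.41, 0.58, -0.60 and 0.60 (adjusted p = 0.369, 0.253, 0.234 and 0.150). Birc6, Sept4 and Dffb did not pass after RLE scaling, Birc6 after upper quartile scaling, nor Birc6, Aifm1 and Dffb with no filter.

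Upstream of the BCL2 family, p53 pathway genes went both ways, with 3 of 6 higher, 2 lower and a median of -0.05. Over all tested genes 27.7% were higher and 17.0% lower. Trp53, which encodes p53, stood at 14.9 and 17.9 in Klf9 KO, against 7.59 and 6.56 in WT (1.11 ± 0.18, SE, limma adjusted p = 0.00138). Ccng1, a p53 target, fell (49.2 and 45.5, against 179 and 259; -2.16 ± 0.23), as did Mdm2, which marks p53 for degradation (-0.66), while its relative Mdm4 rose (0.64). Of 7 tested transcription factors known to act on Bcl2l11, E2f1 (7.83 and 10.8, against 0.98 and 0.99), Mybl2 (1.75 ± 0.22) and Jun (0.76) rose and Foxo3 fell (14.8 and 12.7, against 24.2 and 20.9; -0.67 ± 0.18). E2f1 and Mybl2, which also drive the cell cycle, reached the filter in Klf9 KO libraries only. Without a Klf9 KO library they would not reach it, and they stayed in those fits through the filter on all libraries. Of 8 death receptor genes, Fas fell (2.64 and 1.66, against 13.3 and 15.03; -2.28 ± 0.20) and Tradd (0.75), Tnfrsf10b (0.71) and Fadd (0.52) rose. Trp53, Ccng1 and Fas passed with each library left out in turn. For E2f1 and Mybl2 the log2 fold changes were 2.15 and 1.44 without Klf9 KO replicate 2, and 2.57 and 2.05 without Klf9 KO replicate 1. Mdm2, Mdm4, Jun, Foxo3, Tnfrsf10b and Fadd did not pass without either Klf9 KO library, with adjusted p of 0.218, 0.0969, 0.221, 0.266, 0.0685 and 0.364 without replicate 2 and of 0.153, 0.229, 0.0544, 0.0904, 0.111 and 0.170 without replicate 1. Tradd did not pass without replicate 2 (adjusted p = 0.157), nor Fadd without WT replicate 2 (adjusted p = 0.0674). Fadd did not pass under either scaling, with no filter, with a pseudocount of 0.1 or none, or with non-robust moderation either, and Jun did not with no filter. Over these 7 genes the log2 fold changes without replicate 2 were -0.63 for Mdm2, 0.74 for Mdm4, 0.63 for Jun, -0.57 for Foxo3, 0.76 for Tnfrsf10b, 0.44 for Fadd and 0.58 for Tradd.

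**Figure D4:**
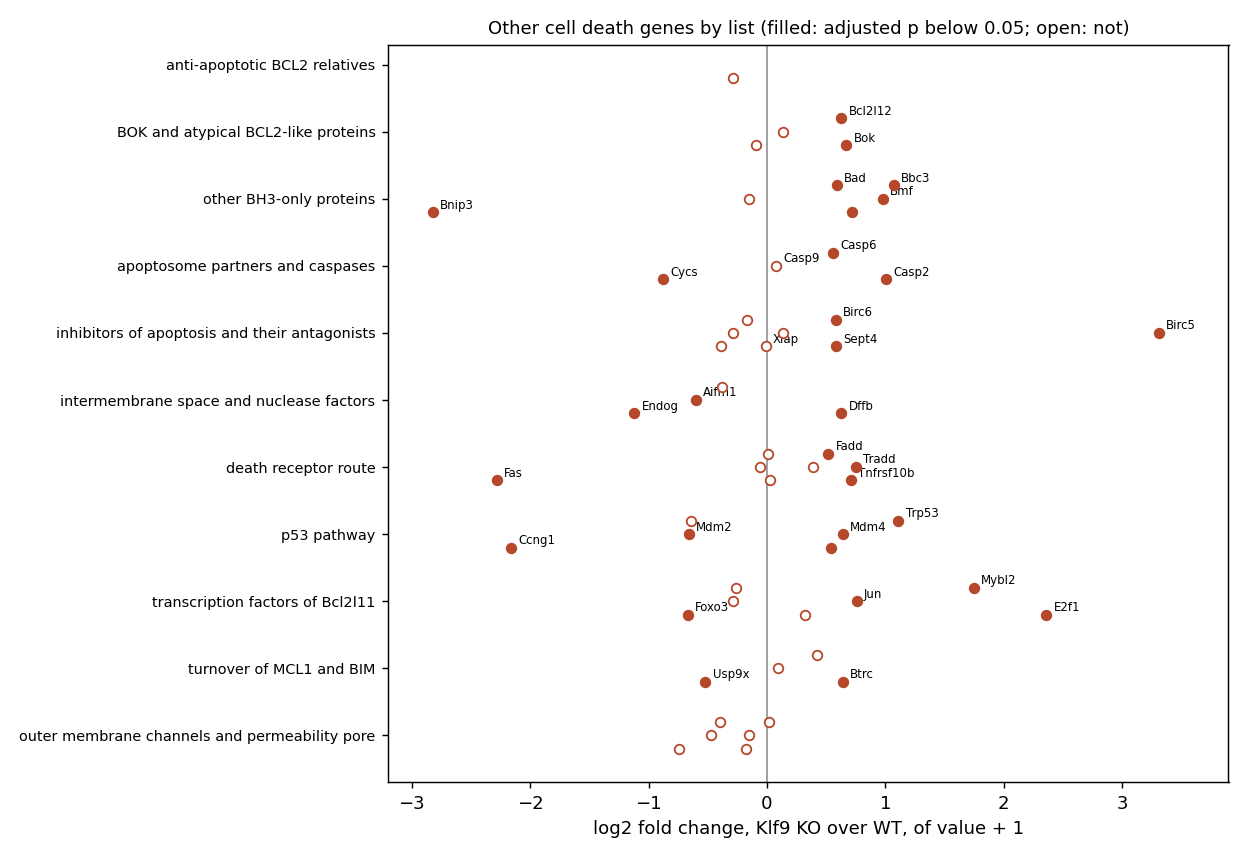
Log2 fold change of value + 1, Klf9 KO over WT, of the tested genes of each cell death list; filled points had a limma adjusted p below 0.05, open points did not, and vertical offsets within a list only separate points. Birc5 (3.31), E2f1 (2.36) and Mybl2 (1.75) lie farthest to the right and Bnip3 (-2.82), Fas (-2.28) and Ccng1 (-2.16) farthest to the left.

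For each of the 9 genes the tested gene with the most similar profile was sought by Euclidean distance over the 4 libraries. Profiles were log2(value + 1) centred on each gene's mean. With 2 groups, any gene with a like fold change of value + 1 scores as similar. The pseudocount shrinks fold changes of low genes, so a low gene can match a gene whose values change less. Bcl2l11 had no gene within 0.1 and was closest to Tet1, a DNA demethylase gene (4.99 and 3.12 in Klf9 KO, against 0.51 and 0.36 in WT), at 0.13. Apaf1 was closest to the cadherin gene Fat4 (distance 0.0314), with 19 genes within 0.1, and Bcl2l1 to Rhot2, a mitochondrial GTPase gene (0.0532), with 8. Diablo was closest to the ribosome assembly gene Sbds (0.051), Bax to S100a16 (0.0339), Bak1 to Cnih2 (0.0283), Mcl1 to Gpld1 (0.0214), Bcl2 to Zfyve26 (0.0252) and Bid to Cyp2u1 (0.0145). Tet1 and Cnih2 (1.26 and 1.75 in Klf9 KO, against 0.31 and 0.17 in WT) reached the filter in the Klf9 KO libraries only. Gpld1 (0.82 and 0.69 in Klf9 KO, against 1.52 and 1.58 in WT) reached it in the WT libraries only.

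Exons of 5 of the 9 genes overlap other genes in GENCODE M21, and how reads were assigned and whether strand was used are not given in the sources used here. Bak1 shares 614 of its 2407 exon bases with Ggnbp1 on the opposite strand, which stood at 20.1 and 21.1 in Klf9 KO, against 15.8 and 12.8 in WT. Bid shares 628 of 3550 with Bcl2l13 on the opposite strand (14.6 and 14.8, against 16.1 and 15.4), and Bcl2 558 of 9157 with an antisense gene. Diablo shares 1326 of 6166 with B3gnt4 (0.08 and 0.05, against 0.12 and 0.16) and 122 with another annotated gene, both on the opposite strand. On the same strand, Diablo shares 1193 with the predicted gene Gm49027 and Bax 192 of 1576 with the predicted gene Gm45808. Strand could not separate reads in these same-strand overlaps. The values of these 5 genes are uncertain to that extent. Bcl2l1, Mcl1, Bcl2l11 and Apaf1 share no exon base with another annotated gene.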

How the data were processed

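RNA sequencing covered 2 Klf9 KO and 2 WT libraries of whole-heart total RNA; groups and replicate numbers came from the sample titles. The authors deposited 1 table of comparisons. For each of 4 pairs of a knockout and a wild-type library it lists a log2 ratio, a Poisson p-value and a false discovery rate score, and for the groups, per the file headers, the DEGseq log2 ratio, p-value and q-value. Poisson p-values ignore variation between replicates, so they are given only beside a test that uses it. The false discovery rate score was not used. Aligner, quantification and genome build are not given in the sources used here. Without counts or depths, no interval for counting error is given.

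The 4 ratios of a gene were additive to within 9.95e-14 in the 16152 genes with all 4, so each gene rests on 4 numbers. Continued fractions gave the smallest whole numbers with those ratios, read as values in steps of 0.01. Missing ratios (1333 genes) were read as both values at the smallest step, which can stand for 0. Whole numbers stayed below 10000000 for 100% of 2000 drawn genes and for 0% of them once about 1e-06 was added to or taken from the ratios. A factor common to all 4 values is lost, which leaves ratios right and levels too low.

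Values were tested with limma 3.58.1 in R 4.3.3 (trend and robust) on log2(value + 1) of the 12135 genes that reached 1 in 2 or more libraries, with group as the only term and adjustment over all of them. The pseudocount shrinks fold changes of low genes. The fit was tested on simulated data. Other steps used Python 3.11.15, numpy 2.4.6, pandas 2.3.3 and matplotlib 3.10.9. The members and gene lists were chosen with earlier results of these data known. A few list genes are left out of the counts and not reported here. Named genes were Klf9, the 9 members, the genes past the threshold in each list (the 4 with the lowest p where more passed) and the gene closest in profile to each member. Alternatives were 2 scalings, 2 other filters, a pseudocount of 0.1 or none, another variance moderation, a replicate block and leaving out each library; those for the list genes were chosen after seeing the data. Promoters came from RefSeq and exon overlaps from GENCODE M21.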

Additional observations from a re-analysis of the deposited data

How the results depend on the processing

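With 2 libraries per group, leaving out a library was the choice that moved the results most. The number of members called higher ran from 2 to 4 and the number called lower from 0 to 3 over the 4 fits that each leave out a library, and over all genes the counts ran from 1859 to 4327 higher and from 1100 to 3261 lower (1859 without Klf9 KO replicate 2, 3261 without WT replicate 1). Without Klf9 KO replicate 2, 4 members no longer passed, and without replicate 1, 3 did not; no member's call was lost without either WT library in turn. All 9 members kept their direction and their side of the threshold under either scaling (RLE or upper quartile), without a filter, with a pseudocount of 0.1 or none, and with non-robust moderation. Of the genes named from the lists and of Cycs, RLE scaling ended 9 calls (Bad, Bcl2l12, Birc6, Bok, Btrc, Casp6, Dffb, Fadd and Sept4) and dropping the filter 11 (Aifm1, Bcl2l12, Birc6, Bok, Btrc, Casp6, Cycs, Dffb, Fadd, Jun and Usp9x). A minimum mean of 5 left 6 members, with 3 higher and 3 lower, and 2120 higher genes in all. With RLE scaling the median gene had a log2 fold change of 0.02, against 0.12 as reported. Among values that did not pass, the sign turned in Bcl2 (-0.01 without WT replicate 2 and up to 0.38 without WT replicate 1), Casp9 (-0.01 after RLE scaling) and Xiap (0.01 without WT replicate 2 and 0.07 without Klf9 KO replicate 2, -0.08 without Klf9 KO replicate 1 and -0.11 after RLE scaling). Same-numbered libraries did not deviate together (correlation -0.035 over 12135 genes). The labels do not say if they were paired, and 1 correlation cannot settle it. With the replicate block 3514 genes were higher and 2275 lower, with 4 members higher and 3 lower. Depth is unknown and limits the low values of Bid, Apaf1 and Bcl2 most.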

Other observations

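Genes of the outer membrane channel and the permeability pore give the mitochondrion its other route to loss of integrity. They did not pass in the limma fit reported throughout, with all libraries. Of 6 tested genes 0 passed in limma, where 27.7% of all tested genes were higher and 17.0% lower, with 1 at an unadjusted p below 0.05, and the median log2 fold change was -0.29. Slc25a4, the adenine nucleotide carrier of heart muscle, stood at 1807 and 1912 in Klf9 KO, against 2489 and 3864 in WT (limma adjusted p = 0.0588), and Ppif, cyclophilin D, at 66.2 and 59.7, against 65.7 and 58.4. Slc25a4 was lower in limma after RLE scaling (adjusted p = 0.0257), after upper quartile scaling (0.0289), with non-robust moderation (0.0283) and with the replicate block (0.0116). With no filter, with a minimum mean of 5, and with a pseudocount of 0.1 or none, 0 of the 6 genes passed. Without WT replicate 1, 3 of the 6 were lower, namely Slc25a4 (-1.06; adjusted p = 0.000209), Vdac3 (-0.77; adjusted p = 0.000931) and Vdac1 (-0.50; adjusted p = 0.0155), where 26.9% of all tested genes were lower.

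Of 4 genes that govern turnover of MCL1 and BIM, Usp9x, which removes ubiquitin from MCL1, fell (12.0 and 10.2 in Klf9 KO, against 15.7 and 17.1 in WT; limma adjusted p = 0.0396), and Btrc, which marks phosphorylated BIM for degradation, rose (9.39 and 9.80, against 6.93 and 4.81; limma adjusted p = 0.0256). Neither passed without either Klf9 KO library (adjusted p = 0.433 and 0.166 without replicate 2, and 0.171 and 0.110 without replicate 1) or with no filter, and Btrc did not pass after RLE scaling. Huwe1 and Fbxw7, ubiquitin ligases of MCL1, did not pass. Of the 4 genes 1 was thus higher and 1 lower, where 27.7% of all tested genes were higher and 17.0% lower.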
